A study of Homo sapiens with 30 samples.

Results

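The genes described here were 10 of the 60664 genes counted in 30 human RNA-seq libraries: SUV39H1, SUV39H2, SETDB1, SETDB2, EHMT1 and EHMT2, which encode enzymes that methylate lysine 9 of histone H3 (H3K9), TRIM28, which encodes a corepressor that brings SETDB1 to chromatin, and CBX1, CBX3 and CBX5, which encode the heterochromatin protein 1 (HP1) family. They were chosen by name and matched by Ensembl identifier in the gene counts of every library, and all 10 passed the filter on low counts in each comparison. The libraries formed 10 groups of 3, each from 3 separate cultures. K562 cells, a chronic myeloid leukaemia line, and HCT116 cells, a colorectal carcinoma line, were wild type and received the DNMT1 inhibitor (DNMT1i) at 10 µM or DMSO at 0.1% for 3 days. HT-CTCF cells are an HCT116 clone with HaloTag on both copies of CTCF. They received DNMT1i at 10 µM or DMSO at 0.1% for 1 day, in each case either alone or with HaloPROTAC3, a degrader of the HaloTag fusion that was added beforehand and kept on throughout. The speckle cells are a K562 clone with degron tags on both SON and SRRM2, core proteins of nuclear speckles, and received dTAG-13 at 500 nM or DMSO at 0.1% for 6 hr. Each engineered line was 1 clone, so a property of the line and a property of the clone cannot be told apart. The degraders remove proteins, so RNA levels of CTCF, SON and SRRM2 are no check of depletion.

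DNMT1 copies DNA methylation onto newly made strands, and its loss leaves daughter strands unmethylated. H3K9 methylation is a parallel silencing mark: SUV39H1 and SUV39H2 write the trimethyl mark at pericentromeric repeats, EHMT1 (GLP) and EHMT2 (G9a) write mono- and dimethylation in euchromatin, and SETDB1 trimethylates H3K9 at retroelements where zinc finger proteins and TRIM28 bring it. HP1 proteins bind the methylated lysine through a chromodomain and bind SUV39H enzymes in turn, and the pathways meet at UHRF1, a partner of DNMT1 that reads H3K9 methylation.

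Levels are CPM, a gene's counts scaled to a common total of counts assigned to genes, given per library or as mean ± SD over n = 3. Fold changes, standard errors (SE) and p-values came from edgeR's quasi-likelihood test with Benjamini-Hochberg adjustment over all genes tested, and a gene is said to have risen or fallen where adjusted p was below 0.05. Each library held from 4243092 to 21228534 gene counts. HT-CTCF libraries were the shallowest, with at most 9407430, and single genes of the set had from 25 counts (SETDB2) to 8878 counts (TRIM28) in a library. Erythroid markers summed to 1095 to 1670 CPM in K562 libraries and 272 to 406 CPM in HCT116 libraries, and TFRC, which many dividing cells express, carried most of the sum in both lines. Colon epithelial markers summed to 375 to 567 CPM in K562 and 2866 to 3489 CPM in HCT116. In HT-CTCF groups colon epithelial markers summed to 2423 to 3359 CPM and erythroid markers to 434 to 583 CPM. Of 7 erythroid markers 3 to 5 were at 0 in each of these groups, HBG1 in every one. VIL1, a brush border marker, was at 0 in 2 HT-CTCF groups, and no other colon epithelial marker was at 0 in any. Replicate 3 of K562 in DMSO stood apart from its replicates: a chi-square statistic over genes per degree of freedom was 29.7 and 31.4 for its pairs, against at most 14.5 for the pairs of the other wild-type groups and 2.48 between the other two, so K562 results are also given without it. In cell cultures measured in bulk, fewer cells expressing a gene and less RNA per cell cannot be told apart.

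The sequences just upstream of a RefSeq start of SUV39H1, CBX5 and CBX3 are shown because SUV39H1 and CBX5 fell with DNMT1i in both wild-type lines and CBX3 rose in one, and because CpG is the dinucleotide that DNMT1 methylates. They are the 250 bases before the RefSeq transcript start (GRCh38.p14), written 5′ to 3′ on the gene's strand with CpG in capitals: SUV39H1 at chrX:48696484-48696733 (plus strand), CBX5 at chr12:54280123-54280372 (minus strand) and CBX3 at chr7:26201193-26201442 (plus strand). The CBX3 window lies inside the gene as counted, within its first exon bin (a counted piece of exon), chr7:26201162-26201561. The CBX5 window overlaps the counted bin chr12:54280123-54280133.
SUV39H1: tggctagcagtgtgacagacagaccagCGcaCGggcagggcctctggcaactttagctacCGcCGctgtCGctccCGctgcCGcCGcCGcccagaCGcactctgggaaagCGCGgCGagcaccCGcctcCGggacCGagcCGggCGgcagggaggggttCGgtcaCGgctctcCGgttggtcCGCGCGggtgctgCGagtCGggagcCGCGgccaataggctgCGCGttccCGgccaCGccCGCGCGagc
CBX5: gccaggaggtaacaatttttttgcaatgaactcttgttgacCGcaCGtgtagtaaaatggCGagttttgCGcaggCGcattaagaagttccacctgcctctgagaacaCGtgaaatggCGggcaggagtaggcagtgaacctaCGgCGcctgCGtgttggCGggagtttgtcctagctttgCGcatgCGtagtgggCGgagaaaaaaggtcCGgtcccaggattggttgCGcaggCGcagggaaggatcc
CBX3: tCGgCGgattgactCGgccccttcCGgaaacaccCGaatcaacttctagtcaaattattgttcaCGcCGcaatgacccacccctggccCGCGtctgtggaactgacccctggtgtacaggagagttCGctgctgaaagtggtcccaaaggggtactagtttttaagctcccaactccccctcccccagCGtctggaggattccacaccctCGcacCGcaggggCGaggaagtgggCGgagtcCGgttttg
The SUV39H1 window held 35 CpG, a number that 5.8% of 35116 promoter windows of the same length reached. The CBX5 window held 17 CpG, which 39% of windows reached, and the CBX3 window held 16, which 41% reached. The median window had 11. The letters GGGCGG, a match to the core of an SP1 site and counted on both strands, occurred 2 times in the SUV39H1 window and 1 time in each of the other two, and 42.6% of all windows held them. RefSeq lists another SUV39H1 start further upstream, whose window, chrX:48695304-48695553, held 5 CpG. Windows of the other genes held 9 and 20 (SETDB1, 2 starts), 16 (EHMT2), 25 (SETDB2), 30 (CBX1), 38 (SUV39H2) and 43 CpG (EHMT1), and those at 2 further CBX5 starts held 3 and 4. So the 3 windows shown, with 16 to 35 CpG, covered only part of the range in the set (3 to 43), and a CpG-rich window was not particular to SUV39H1. DNA methylation at these windows was not analysed here.

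**Figure D1:**
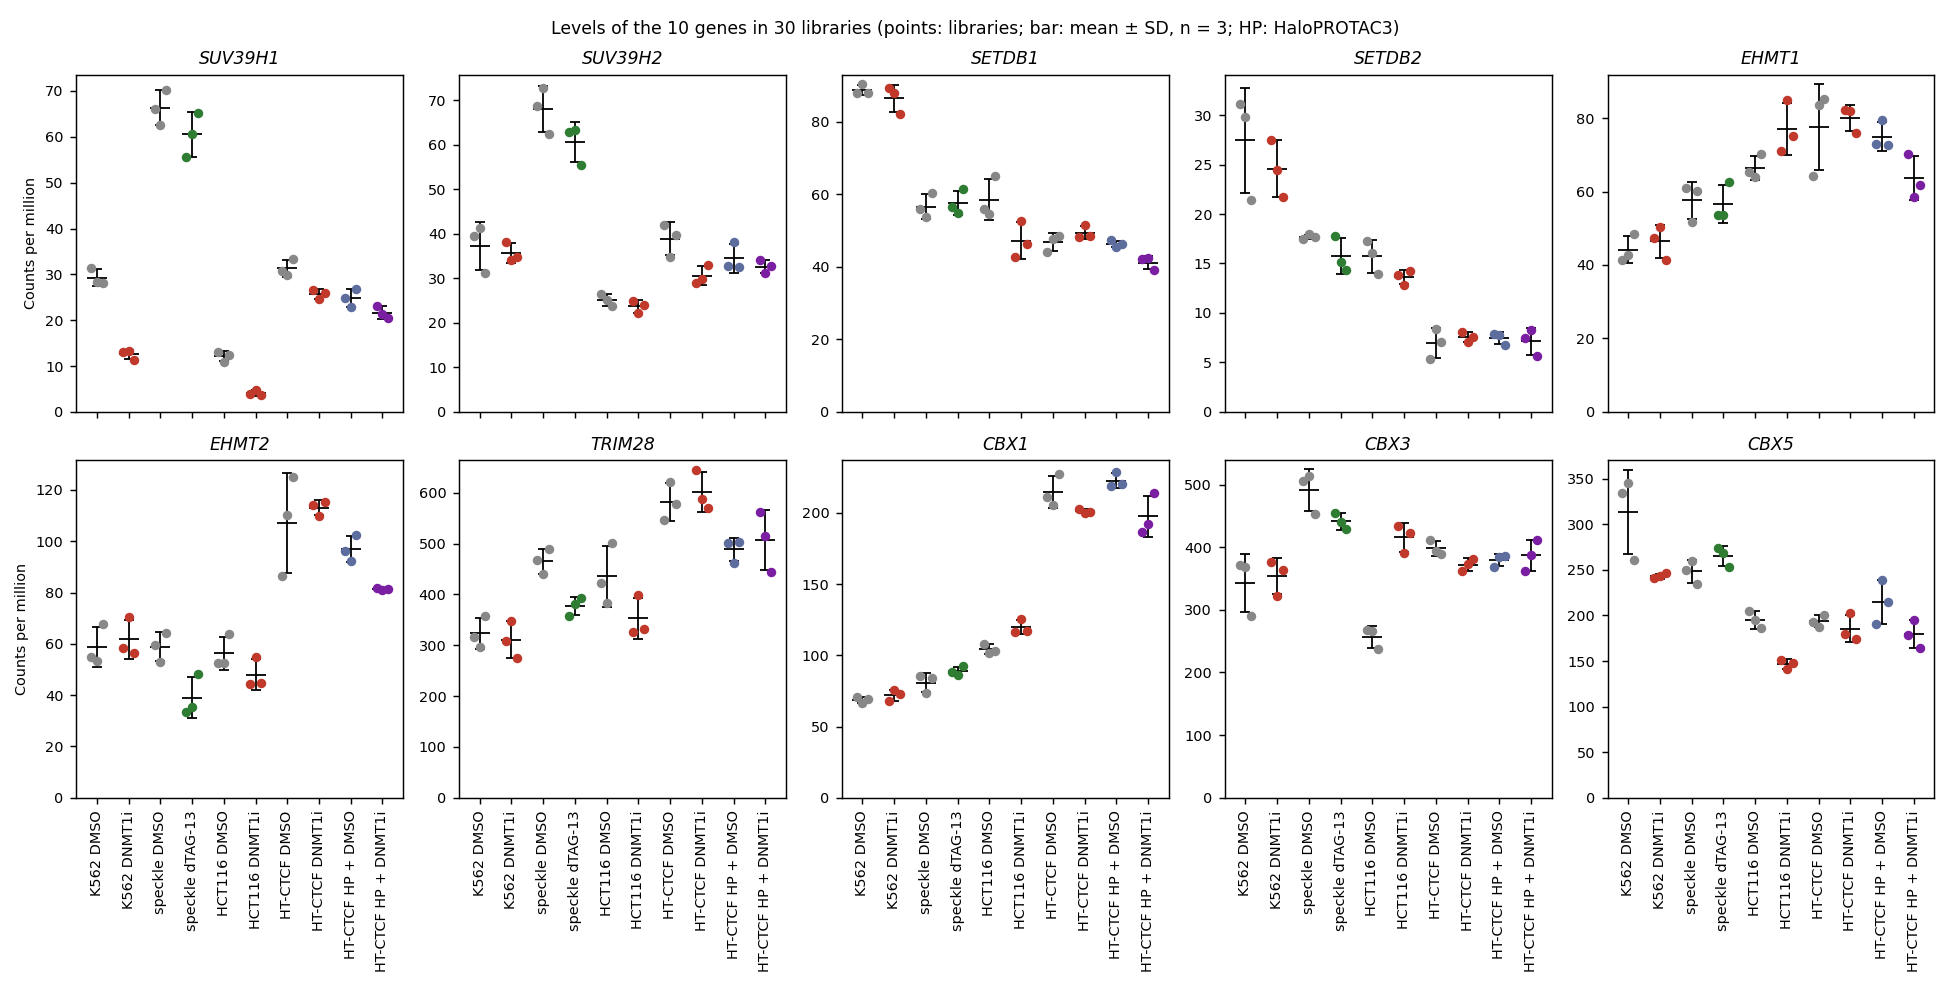
Level of each gene (CPM) in each library of the 10 groups; points are libraries and bars are mean ± SD (n = 3). SUV39H1 ran from a mean of 4.09 CPM in HCT116 cells with DNMT1i to 66.3 CPM in speckle cells in DMSO, the widest range in the set, and every other gene stayed within a 3.95-fold range of group means.

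Resting levels were compared between wild-type lines in DMSO first, since they set the baseline for each response. Of the 10 genes, 6 were higher in K562 and 3 were higher in HCT116, where 36.9% and 39.6% of all genes tested were. SUV39H1 had the largest difference of the set. Its 3 K562 libraries held 31.4, 28.3 and 28.1 CPM and its HCT116 libraries 12.97, 10.9 and 12.5 CPM. The groups did not overlap, and the log2 difference was 1.26 (SE 0.11, adjusted p = 1.66e-09). SETDB2, a SETDB1 relative with less studied substrates, was also higher in K562 (log2 difference 0.79, adjusted p = 1.72e-05), as was CBX5, which encodes HP1α (0.66, adjusted p = 1.45e-06). SETDB1 (0.59, adjusted p = 2.56e-06), SUV39H2 (0.55, adjusted p = 9.15e-05) and CBX3, which encodes HP1γ (0.40, adjusted p = 0.00102), completed the genes that were higher in K562. CBX1, which encodes HP1β, was lower in K562 (log2 difference −0.61, adjusted p = 6.51e-07), as were EHMT1 (−0.60, adjusted p = 8.22e-06) and TRIM28 (−0.44, adjusted p = 0.000759). EHMT2 levels overlapped between lines (58.8 ± 7.82 and 56.4 ± 6.49 CPM; log2 difference 0.05, SE 0.12, adjusted p = 0.723). The 9 calls each held under all 12 alternatives. With 1 line of each tissue, line and tissue cannot be told apart.

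Divided by exon length, TRIM28 and CBX3 were the most abundant of the set in both lines. In K562 in DMSO, TRIM28 had 75.04 ± 7.25 CPM per kb and CBX3 71.0 ± 9.54, with overlapping libraries, and the next, CBX1, had 22.6 ± 0.683. In HCT116 in DMSO the order was TRIM28 (101 CPM per kb), CBX3 (53.2), CBX1 (34.2) and CBX5 (13.1), with no overlap between neighbours. The methyltransferases lay lower, from 12.5 CPM per kb for SETDB1 to 1.997 for EHMT1 in K562, and from 8.24 for SETDB1 to 2.35 for SETDB2 in HCT116. Exon length is the summed width of all annotated exon bins, 22.1 kb for EHMT1 and 14.96 kb for CBX5. In K562 only 60 of 141 EHMT1 bins were deep enough to test. Undivided, EHMT1 had 44.2 CPM in K562 in DMSO, above SUV39H1 (29.3) and SETDB2 (27.4), and CBX5 had 313, above CBX1 (68.9). The places of EHMT1 and CBX5 in this order thus depend on the length used. SUV39H2, SUV39H1 and EHMT2 followed each other in K562, at 10.5, 9.05 and 8.06 CPM per kb, and each overlapped its neighbour. In HCT116 cells with DNMT1i SUV39H1 was last of the 10, at 1.26 ± 0.187 CPM per kb. Engineered clones differed from their parent lines in this order: SUV39H1 and SUV39H2 stood above CBX5 in speckle cells in DMSO (20.5, 19.1 and 16.6 CPM per kb). In HT-CTCF cells in DMSO, EHMT2 had a higher mean than CBX5 (14.7 and 12.9 CPM per kb), with overlapping libraries. CBX1 reached 70.6 CPM per kb there and kept the rank it had in HCT116. Clone and experiment differ together there, and read length may, so these were set side by side and not tested.

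The first treatment question was how the H3K9 methylation machinery responded when DNMT1 was inhibited. In K562 cells at 3 days, SUV39H1 and CBX5 fell and no gene of the set rose. Over all genes tested, 2.38% fell and 6.47% rose (326 and 888 genes), and without DMSO replicate 3 1499 genes fell and 1941 rose. SUV39H1 was at 31.4, 28.3 and 28.1 CPM in DMSO and at 13.03, 13.2 and 11.4 CPM with DNMT1i. Its groups were far apart, and the level with DNMT1i was 0.416 of that in DMSO (log2 fold change −1.26, SE 0.10, adjusted p = 1.63e-05). The call held in all 11 alternatives, with adjusted p from 5.98e-19 to 0.000358. CBX5 was at 334, 345 and 260 CPM in DMSO and at 241, 243 and 246 CPM with DNMT1i. Its lowest DMSO library was replicate 3, the one that stood apart, and the groups did not overlap (log2 fold change −0.40, SE 0.10, adjusted p = 0.0299). Without that library the CBX5 change was −0.50 on the log2 scale, and the call was lost when any other single library was left out (adjusted p from 0.0819 to 0.131) and without TMM scaling (0.0565).

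The other 8 genes in K562 had log2 fold changes between −0.20 and 0.03. SETDB2 was at 31.1, 29.8 and 21.4 CPM in DMSO and 27.5, 24.5 and 21.7 CPM with DNMT1i (log2 fold change −0.20, SE 0.14, adjusted p = 0.443). Its groups overlapped, and without DMSO replicate 3 it fell (−0.34, adjusted p = 0.0208), which was 1 of 11 alternatives and the only one to call it. SUV39H2, the paralog of SUV39H1, was at 37.3 ± 5.47 CPM in DMSO and 35.7 ± 2.23 with DNMT1i (−0.10, adjusted p = 0.656). SETDB1 (−0.08, adjusted p = 0.624) and TRIM28 (−0.10, adjusted p = 0.648) overlapped between groups in CPM, as did EHMT1 (0.03, adjusted p = 0.919), EHMT2 (0.03, adjusted p = 0.925), CBX1 (0.03, adjusted p = 0.904) and CBX3 (0.01, adjusted p = 0.98). After TMM scaling the SETDB1 libraries with DNMT1i all lay below those in DMSO, and the others named here still overlapped. The median log2 fold change of the 10 genes was −0.09, against −0.00 over all genes tested. Erythroid markers also differed between these groups, with a summed level of 1610 to 1670 CPM in DMSO and 1095 to 1272 CPM with DNMT1i, and 1 of 7 rose and 1 fell. TFRC alone went from 1250 ± 29.3 to 787 ± 84.7 CPM. Colon epithelial markers summed to 375 to 471 CPM in DMSO and 488 to 567 CPM with DNMT1i, and 3 of 5 tested rose. Markers of other cell types summed to 192 to 226 CPM in DMSO and 138 to 149 CPM with DNMT1i, and of 4 tested 2 rose and 1 fell. Over all genes tested in K562, 6.47% rose and 2.38% fell, and the part of these markers in the result was not tested.

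In HCT116 cells at 3 days, 6 of the 10 genes fell, SUV39H1, CBX5, SETDB1, TRIM28, EHMT2 and SETDB2, and CBX3 rose. Here 27.9% of all genes tested fell and 33.8% rose. The median of the 10 log2 fold changes was −0.32, against 0.02 over all genes. TMM factors differed between the groups, from 0.942 to 0.985 in DMSO and 1.02 to 1.06 with DNMT1i, so fitted folds lie below the ratios of CPM. With library totals in place of TMM the median of all genes moved from 0.02 to 0.13, the genes called went from 5365 higher and 4426 lower to 6307 and 3265, and members called went to 3 higher and 4 lower.

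SUV39H1 again had the largest change of the set. Its level was 12.97, 10.9 and 12.5 CPM in DMSO and 3.92, 4.76 and 3.58 CPM with DNMT1i. The lowest DMSO library was well above every treated library, and the treated level was 0.315 of the DMSO level (log2 fold change −1.66, SE 0.14, adjusted p = 2.51e-09, from 3.46e-29 to 6.27e-08 over 11 alternatives). SUV39H2 was at 26.6, 25.1 and 23.8 CPM in DMSO and 24.9, 22.1 and 24.0 CPM with DNMT1i. These groups overlapped and the change did not pass (−0.20, SE 0.10, adjusted p = 0.0871), except without DMSO replicate 3 (0.0456, the lowest over the alternatives).

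For SETDB1 and its recruiter, SETDB1 was at 55.9, 54.5 and 64.9 CPM in DMSO and 42.6, 52.6 and 46.2 CPM with DNMT1i. The groups did not overlap and it fell (log2 fold change −0.41, SE 0.09, adjusted p = 0.000364). TRIM28, at 422, 384 and 500 CPM in DMSO and 327, 399 and 333 CPM with DNMT1i, fell by the same amount (−0.41, SE 0.09, adjusted p = 0.000465). EHMT2, at 52.6, 52.6 and 63.8 CPM in DMSO and 44.3, 55.0 and 44.8 CPM with DNMT1i, fell with −0.33 (SE 0.09, adjusted p = 0.00391). SETDB2, at 17.2, 16.0 and 13.9 CPM in DMSO and 13.9, 12.8 and 14.2 CPM with DNMT1i, fell with −0.31 (SE 0.11, adjusted p = 0.022). TRIM28, EHMT2 and SETDB2 overlapped between groups in CPM and did not after TMM scaling. Without that scaling SETDB1 (adjusted p = 0.0092) and TRIM28 (0.0121) were still called, and EHMT2 (−0.23, adjusted p = 0.0594) and SETDB2 (−0.21, adjusted p = 0.126) were not. SETDB2 was also lost with DESeq2 (0.0764) and without DMSO replicate 1 (0.112), DMSO replicate 2 (0.0728) or DNMT1i replicate 2 (0.0601). EHMT1, the partner of EHMT2 in its heterodimer, was at 65.4, 64.0 and 70.2 CPM in DMSO and 71.2, 85.0 and 75.2 CPM with DNMT1i (log2 fold change 0.11, SE 0.08, adjusted p = 0.238), and was called higher without scaling (0.22, adjusted p = 0.0303).

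Of the 3 HP1 genes in HCT116, CBX5 fell, CBX3 rose and CBX1 was not called. CBX5 was at 205, 195 and 186 CPM in DMSO and 152, 141 and 148 CPM with DNMT1i. It fell with no overlap (log2 fold change −0.52, SE 0.08, adjusted p = 7.43e-06). CBX3 was at 268, 267 and 237 CPM in DMSO and 434, 390 and 423 CPM with DNMT1i. It rose 1.502-fold, with every treated library far above every control (0.59, SE 0.08, adjusted p = 3.48e-06). CBX1 was at 108, 102 and 103 CPM in DMSO and 117, 125 and 117 CPM with DNMT1i, apart but by less than the test allowed (0.09, SE 0.07, adjusted p = 0.267), and was called higher without scaling (0.20, adjusted p = 0.0199). CBX3 shares its start region with HNRNPA2B1 on the other strand and whether counting used strand is not stated, so reads of both genes cannot be told apart with certainty where they overlap. The same holds for SETDB1 with CERS2, SUV39H2 with DCLRE1C, EHMT2 with its antisense gene EHMT2-AS1 and CBX5 with SCAT2, and SUV39H1 and EHMT1 also overlap unnamed genes on the other strand.

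**Figure D2:**
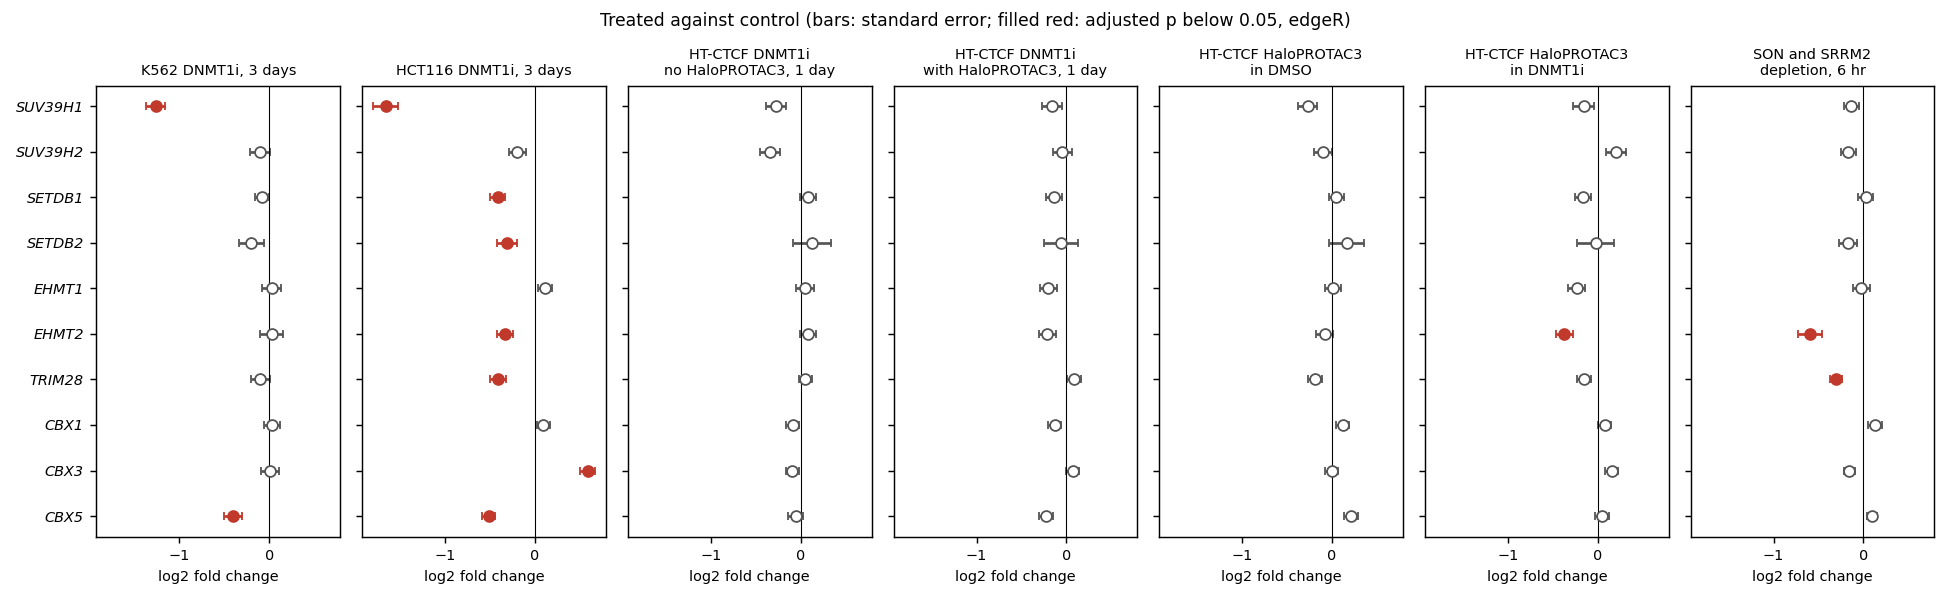
Log2 fold change of each gene (treated against control, x axis) in the 7 comparisons of a treated with a control group, with bars for the standard error; filled red points had adjusted p below 0.05 in edgeR. SUV39H1 fell with DNMT1i in both wild-type lines at 3 days (−1.26 and −1.66), and CBX3 rose in HCT116 (0.59) while its K562 value was 0.01.

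The response was then compared between lines in 1 fit of the 12 wild-type libraries. CBX3 and SETDB1 differed, where 15.7% of all genes had a more negative response in K562 and 14.1% a more positive one. The CBX3 response was lower in K562 by 0.57 on the log2 scale (SE 0.14, adjusted p = 0.00361), and the call held in all 17 alternatives. Its K562 libraries were at 372, 368 and 290 CPM in DMSO and 376, 322 and 363 CPM with DNMT1i, all overlapping. The SETDB1 response was higher in K562 by 0.34 (SE 0.12, adjusted p = 0.0329), and K562 levels were 87.8, 90.4 and 87.9 CPM in DMSO and 89.3, 87.8 and 82.2 CPM with DNMT1i. This call held in 5 of 17 alternatives (adjusted p from 0.0139 to 0.136). The SUV39H1 difference was 0.41 (SE 0.17, adjusted p = 0.0717) and the CBX5 difference 0.12 (SE 0.13, adjusted p = 0.513), so neither passed with all 12 libraries. EHMT2 (0.37, adjusted p = 0.0984) and TRIM28 (0.32, adjusted p = 0.116) did not pass, nor did SETDB2 (0.12, adjusted p = 0.674), SUV39H2 (0.10, adjusted p = 0.66), EHMT1 (−0.07, adjusted p = 0.741) and CBX1 (−0.06, adjusted p = 0.744). Without K562 DMSO replicate 3, the responses of SETDB1, EHMT2 (0.50, adjusted p = 0.00532) and TRIM28 (0.41, adjusted p = 0.0124) were all called higher in K562, and without HCT116 DNMT1i replicate 2 those of SETDB1 (adjusted p = 0.0139), SUV39H1 (0.52, adjusted p = 0.033) and EHMT2 (0.46, adjusted p = 0.0419) were.

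These changes altered the balance within families. SUV39H1 made 46.6% ± 3.45 of the length-corrected SUV39H counts in K562 in DMSO and 27.9% ± 1.79 with DNMT1i. In HCT116 its share was 34.7% ± 2.09 in DMSO and 16.0% ± 2.73 with DNMT1i. In speckle and HT-CTCF cells the share stayed between 42.3% and 52.4% in all 6 groups. Among HP1 genes, CBX3 held 52.9% ± 1.40 in HCT116 in DMSO and 63.6% ± 1.90 with DNMT1i, and CBX5 held 12.99% ± 0.154 and 7.27% ± 0.0705. In K562 the CBX3 share was 61.8% ± 1.72 in DMSO and 64.6% ± 2.59 with DNMT1i, which overlap, and the CBX5 share was 18.2% ± 0.850 and 14.4% ± 0.630. Without division by length, the K562 CBX3 share was 47.3% ± 0.574 in DMSO and 52.8% ± 2.37 with DNMT1i, and the CBX5 share 43.1% ± 1.14 and 36.4% ± 1.41. In HCT116 the CBX5 share was then 35.1% ± 0.431 and 21.5% ± 0.0396. The CBX1 share set the HCT116 background apart: it was 34.1% in wild-type HCT116 in DMSO, 19.9% in K562 in DMSO and 41.4% to 44.1% in the 4 HT-CTCF groups. Shares are ratios of gene counts and were described, not tested.

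**Figure D3:**
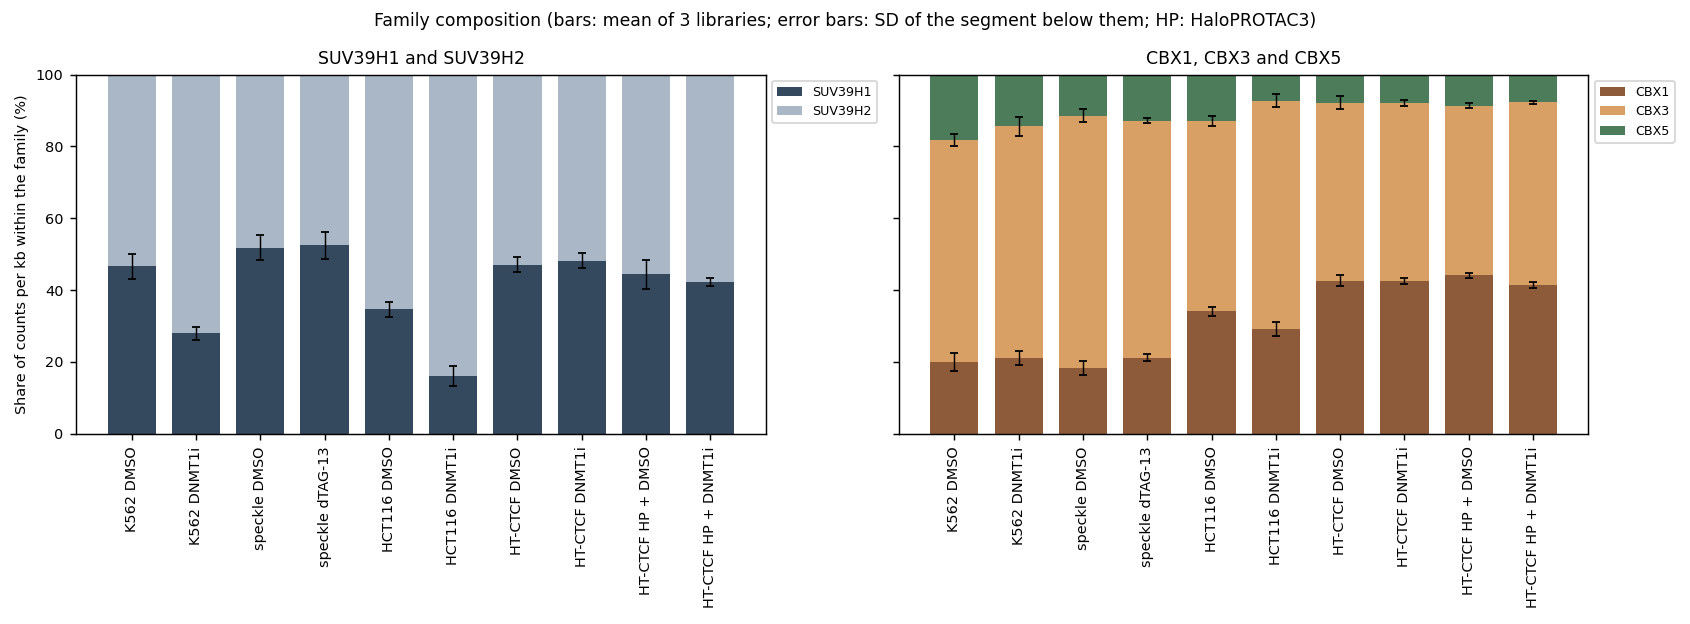
Share of length-corrected counts (%) taken by SUV39H1 and SUV39H2 (left) and by CBX1, CBX3 and CBX5 (right) in the 10 groups; bars are means of 3 libraries and error bars the SD of the segment below. The SUV39H1 share was 27.9% and 16.0% in the wild-type groups with DNMT1i and 34.7% or more in every other group.

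Counts in exon bins, the pieces into which the annotation cuts each gene, were read to see whether the gene-level changes ran along whole transcripts. SUV39H1 lies at chrX:48695554-48709016 (hg38) and has 13 bins, of which 8 were deep enough to test in each wild-type line. All 8 had lower CPM with DNMT1i than in DMSO: log2 ratios ran from −1.44 to −0.93 in K562 (median −1.22) and from −2.16 to −1.11 in HCT116 (median −1.61). The bin that opens at the start next to the printed window, chrX:48696734-48696803, held 55, 46 and 24 counts in K562 in DMSO and 23, 16 and 13 with DNMT1i. In HCT116 it held 14, 23 and 18 counts in DMSO and 9, 10 and 8 with DNMT1i. The first annotated bin, chrX:48695554-48695871, which follows the upstream start, had 0 counts in all 18 wild-type and speckle libraries, which allows up to 3 counts in each (counting error only). SUV39H1 reads were thus counted at the downstream start, the one with the CpG-rich window, in treated and control libraries of both lines.

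Other genes moved along their length too. CBX3 (chr7:26201162-26213607) was higher with DNMT1i in all 19 tested bins in HCT116, with log2 ratios from 0.23 to 1.24, whereas in K562 13 of 19 were above DMSO and 6 below. CBX5 (chr12:54230942-54280133) was lower in all 11 tested bins in HCT116 (−0.64 to −0.05) and in 10 of 11 in K562. SETDB1 was lower in 36 of 37 bins, TRIM28 in 38 of 41 and EHMT2 in 29 of 32 in HCT116. Bins of 1 gene share reads and libraries and are not independent. Of 409 bins of the 10 genes, 255 were tested for a change in usage relative to the rest of the gene in K562, 256 in HCT116 and 263 in speckle cells. None passed with edgeR's exon usage test at adjusted p below 0.05, where 0.0492%, 0.846% and 0.132% of all tested bins did, and 3, 6 and 6 had an unadjusted p below 0.05. DESeq2 was not run on bins.

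**Figure D4:**
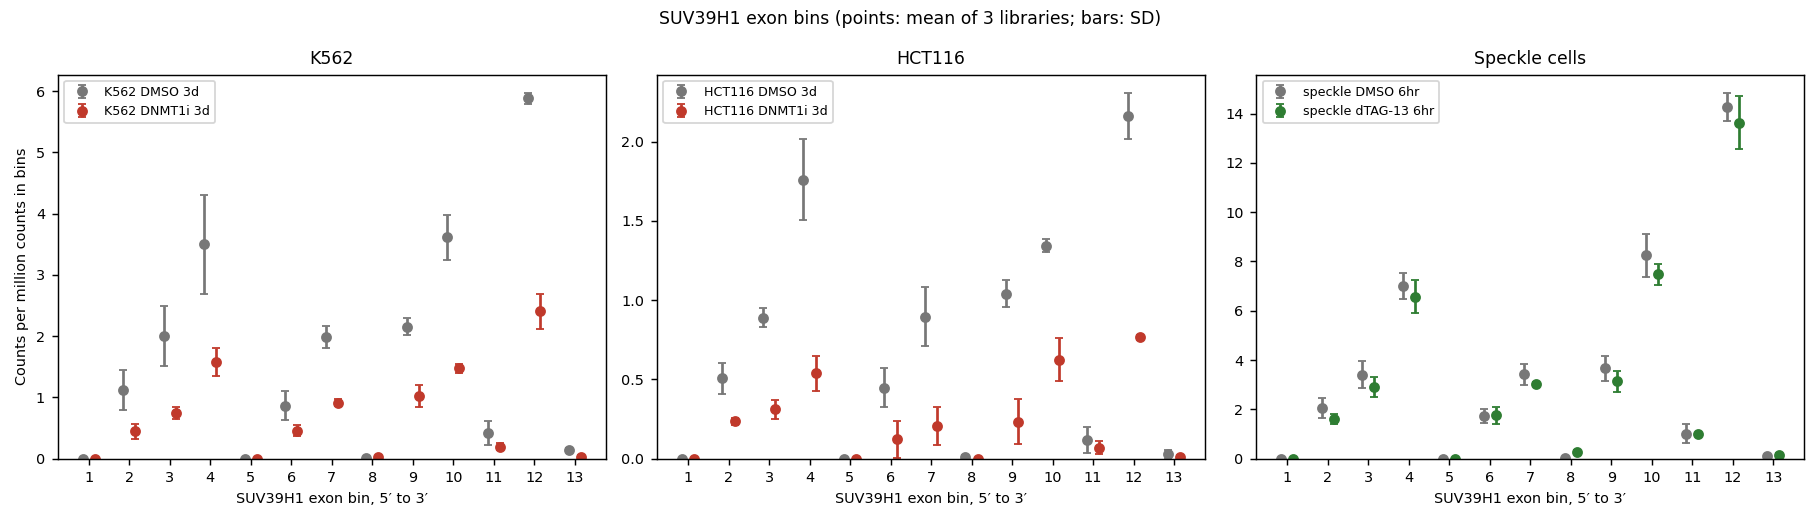
CPM in the 13 SUV39H1 exon bins, 5′ to 3′, in K562, HCT116 and speckle cells; points are means of 3 libraries and bars the SD. In both wild-type lines each of the 8 tested bins lay lower with DNMT1i, and bin 1 was at 0 in every library.

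Depletion of SON and SRRM2 for 6 hr addressed a different question, the dependence of these RNAs on nuclear speckles. EHMT2 and TRIM28 fell and none of the 10 rose. Over all genes tested, 3.09% fell and 1.57% rose. EHMT2 was at 59.7, 53.1 and 64.1 CPM in DMSO and 33.6, 35.2 and 48.2 CPM with dTAG-13. Every depleted library was below every control, with replicate 3 the least so (log2 fold change −0.59, SE 0.14, adjusted p = 0.0381). TRIM28 was at 468, 440 and 488 CPM in DMSO and 358, 381 and 392.03 CPM with dTAG-13, also without overlap (−0.30, SE 0.06, adjusted p = 0.0267). All 32 tested EHMT2 bins were below DMSO (log2 ratios from −0.97 to −0.12, median −0.60), and 36 of 44 TRIM28 bins were. Each of these calls was lost without DMSO replicate 1, DMSO replicate 3, dTAG-13 replicate 1 or dTAG-13 replicate 2 (adjusted p from 0.0711 to 0.169 for EHMT2 and 0.0692 to 0.144 for TRIM28), and both kept their direction.

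SUV39H1, which fell with DNMT1i, was at 66.1, 62.6 and 70.2 CPM in DMSO and 55.6, 60.7 and 65.3 CPM with dTAG-13. The groups overlapped (log2 fold change −0.13, SE 0.08, adjusted p = 0.425). CBX3 was at 506, 514 and 453 CPM in DMSO and 455, 440 and 428 CPM with dTAG-13 (−0.15, SE 0.06, adjusted p = 0.194). SUV39H2 and SETDB2 were both at −0.17 (adjusted p = 0.296 and 0.386), SETDB1 at 0.02 (0.891) and EHMT1 at −0.02 (0.911). CBX1 (0.13, adjusted p = 0.375) and CBX5 (0.10, adjusted p = 0.412) had small positive values. With replicate number added to the edgeR fit, CBX3 (adjusted p = 0.0148) and SUV39H2 (0.0301) were called lower. Calls over all genes then went from 658 to 3061. Whether replicate numbers pair these cultures was not settled.

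One short SUV39H1 bin went against the rest in speckle cells and was picked after its values were seen. The bin, chrX:48706412-48706497, is 86 bases long, lies in an exon of 1 and in an intron of 3 of the 4 SUV39H1 transcripts in GENCODE 44, and held 1, 1 and 1 counts in DMSO and 6, 11 and 15 with dTAG-13. The ratio of rates was 9.22, with a 95% counting interval from 2.88 to 47.0. That interval leaves out the spread between libraries and the choice of the bin, so it is no test. The bin had too few counts for the main test. A usage change was called only without the count filter, without DMSO replicate 2 or without DMSO replicate 3. In the last 2 fits the bin passed the filter through the dTAG-13 group alone, where it is high. Those calls are therefore no support, and the bin is given as counts. In wild-type libraries it held 0 or 1 count.

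The HT-CTCF experiment asked whether 1 day of DNMT1i acted on these genes, and whether CTCF was needed. All 5 comparisons here used the same 12 libraries and several share a control group, so values are set side by side. With DNMT1i alone, none of the 10 genes was called by edgeR or by DESeq2 (2 had an unadjusted p below 0.05 in edgeR), and 2.48% of all genes were. SUV39H1 was at 30.7, 29.9 and 33.4 CPM in DMSO and 26.7, 24.6 and 25.9 CPM with DNMT1i, apart but not past the threshold (log2 fold change −0.27, SE 0.11, adjusted p = 0.229). SUV39H2 was at 42.1, 34.8 and 39.8 CPM in DMSO and 28.9, 29.9 and 33.0 CPM with DNMT1i (−0.34, SE 0.11, adjusted p = 0.0971). The remaining 8 genes ran from −0.09 (CBX3, adjusted p = 0.577, and CBX1, 0.614) to 0.12 (SETDB2, 0.831), with CBX5 at −0.05 (0.801), EHMT1 at 0.05 (0.86), TRIM28 at 0.05 (0.784), SETDB1 at 0.08 (0.716) and EHMT2 at 0.08 (0.722). Time of treatment, line and depth all differed from the wild-type HCT116 experiment, so these experiments were not compared by a test.

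With HaloPROTAC3 present, DNMT1i again gave no call among the 10 genes in edgeR (3 at unadjusted p below 0.05) or in DESeq2 (1 adjusted p was not given), where 5.41% of all genes were called. CBX5 had the smallest p. It was at 191, 239 and 215 CPM in DMSO and 179, 195 and 165 CPM with DNMT1i, which overlap (log2 fold change −0.22, SE 0.08, adjusted p = 0.0903), and passed without HaloPROTAC3 DMSO replicate 1 (−0.30, adjusted p = 0.0323). EHMT2 (−0.21, adjusted p = 0.193), EHMT1 (−0.20, 0.229), SUV39H1 (−0.16, 0.472), SETDB1 (−0.13, 0.415) and CBX1 (−0.13, 0.327) were negative. SETDB2 (−0.06, 0.897), SUV39H2 (−0.04, 0.868), CBX3 (0.07, 0.619) and TRIM28 (0.09, 0.557) were nearer 0. No member's DNMT1i response depended on HaloPROTAC3 by the interaction test in edgeR (1 at unadjusted p below 0.05: EHMT2, −0.29, SE 0.13, adjusted p = 0.31) or DESeq2 (4 adjusted p were not given), and 0.268% of all genes did. The other interaction terms were 0.30 for SUV39H2 (adjusted p = 0.373), 0.16 for CBX3 (0.488), 0.12 for SUV39H1 (0.799), 0.03 for TRIM28 (0.922), −0.04 for CBX1 (0.902), −0.17 for CBX5 (0.524), −0.18 for SETDB2 (0.823), −0.22 for SETDB1 (0.46) and −0.25 for EHMT1 (0.408).

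CTCF depletion itself was read with HaloPROTAC3 against none. In DMSO none of the 10 genes was called in edgeR (3 at unadjusted p below 0.05) or DESeq2, against 17.3% of all genes. CBX5 was nearest: 193, 188 and 201 CPM without and 191, 239 and 215 CPM with HaloPROTAC3 overlapped in CPM (log2 fold change 0.22, SE 0.08, adjusted p = 0.0544). After TMM scaling the CBX5 groups did not overlap, and without HaloPROTAC3 DMSO replicate 1 it was called higher (0.30, adjusted p = 0.0143). SUV39H1 went from the values above to 24.7, 23.0 and 26.9 CPM (−0.27, SE 0.11, adjusted p = 0.0866), and TRIM28 from 547, 621 and 578 to 501, 462 and 502 CPM (−0.19, SE 0.08, adjusted p = 0.0909). Neither overlapped, and with library totals in place of TMM both were called lower (−0.34, adjusted p = 0.0317, and −0.25, adjusted p = 0.0196), under which the calls over all genes went from 1276 higher and 924 lower to 918 and 1505. TRIM28 was also called lower without DMSO replicate 1 (−0.23, adjusted p = 0.0493). SETDB2 (0.17, adjusted p = 0.624), CBX1 (0.12, 0.283), SUV39H2 (−0.10, 0.57), EHMT2 (−0.08, 0.6), SETDB1 (0.05, 0.752), EHMT1 (0.01, 0.945) and CBX3 (−0.00, 0.981) completed the set.

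In cells given DNMT1i, EHMT2 was the 1 gene of the set that fell with HaloPROTAC3, where 10.1% of all genes fell. It was at 114, 110 and 115 CPM without and 81.9, 80.9 and 81.5 CPM with HaloPROTAC3. The 2 groups were tight and far apart (log2 fold change −0.37, SE 0.09, adjusted p = 0.00407, from 0.000366 to 0.0216 over 12 alternatives). In DMSO the same contrast for EHMT2 gave 86.3, 110 and 125 CPM without and 96.2, 92.2 and 103 CPM with HaloPROTAC3, a wide control group, and the interaction above did not pass. EHMT1 (−0.24, adjusted p = 0.0781), CBX3 (0.16, 0.11), TRIM28 (−0.15, 0.16), SETDB1 (−0.17, 0.203), SUV39H2 (0.20, 0.208), SUV39H1 (−0.15, 0.38), CBX1 (0.08, 0.491), CBX5 (0.05, 0.718) and SETDB2 (−0.02, 0.963) were not called. Without TMM scaling, EHMT1 (−0.34, adjusted p = 0.0113), TRIM28 (−0.25, 0.0169) and SETDB1 (−0.27, 0.0363) were called lower as well, and the calls over all genes went from 1551 higher and 1286 lower to 940 and 2246.

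Genes that work with or against these enzymes were read from 4 lists. Among 11 H3K9 demethylases, none was called in K562 by edgeR (2 at unadjusted p below 0.05), and in HCT116 5 rose and 4 fell, beside 33.8% and 27.9% of all genes. KDM7A, which removes H3K9 and H3K27 dimethylation, rose from 54.7 ± 1.44 to 141 ± 9.85 CPM (log2 fold change 1.26, adjusted p = 7.48e-11). KDM3A (0.59, adjusted p = 8.88e-07), KDM4B (0.67, adjusted p = 1.13e-05) and PHF8 (0.49, adjusted p = 2.03e-05) also rose. The split depended on scaling, with 6 higher and 2 lower without TMM. Of the 6 SETDB1 cofactors and members of the HUSH complex, which spreads SETDB1's mark, 5 rose in HCT116 and none fell, while SETDB1 itself fell: MORC2, a HUSH-bound ATPase, by 0.66 (adjusted p = 3.34e-07), the HUSH scaffold TASOR by 0.51 (2.06e-05), PPHLN1 by 0.33 (0.00126) and MPHOSPH8, the HUSH chromodomain protein, by 0.31 (0.00179). None of the 6 was called in K562 (0 at unadjusted p below 0.05), and the response differed between lines for 4, including MORC2 (−0.78, adjusted p = 4.95e-05), ATF7IP2 (−0.50, 0.0215), TASOR (−0.48, 0.0227) and MPHOSPH8 (−0.34, 0.0413). Over all genes tested, 15.7% had a more negative response in K562 and 14.1% a more positive one.

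Of the 4 EHMT partners, CDYL2, a chromodomain corepressor, passed the count filter in HCT116 through the DNMT1i group alone, and it is given as counts. It had 0, 0 and 2 counts in DMSO and 55, 90 and 63 counts with DNMT1i, a ratio of 98.1 with a 95% counting interval from 26.8 to 815. That interval leaves out the spread between libraries and is no test. Of the other 3, CDYL rose by 0.38 (adjusted p = 0.000216) and ZNF644, the zinc finger partner of EHMT2, by 0.22 (adjusted p = 0.0342, a call that held in 6 of 11 alternatives, with adjusted p up to 0.178). In K562 these 3 were tested, CDYL2 was too low to test, and none was called (0 at unadjusted p below 0.05). Of 15 HP1 partners and heterochromatin maintenance genes, 3 rose and 5 fell in HCT116, beside the same shares of all genes, and none was called in K562 (1 at unadjusted p below 0.05). LRIF1, an HP1-binding protein, rose by 0.91 (adjusted p = 4.56e-08), while the remodeller HELLS fell by 0.81 (1.11e-07), and CHAF1A and CHAF1B, subunits of the chromatin assembly factor that binds HP1 at replication forks, fell by 0.55 (3.49e-05) and 0.53 (3.37e-05). LRIF1 (−0.86, adjusted p = 0.000252), HELLS (0.80, 0.000463), CHAF1B (0.52, 0.00382) and CHAF1A (0.48, 0.0284) were also the 4 whose response differed between lines, beside 15.7% (lower in K562) and 14.1% (higher) of all genes. DESeq2 called no gene of these 4 lists in K562 either.

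S phase genes moved in HCT116 as well. Of 12, 11 fell there, from −1.504 (CDT1) to −0.30 (MCM6), beside 27.9% of all genes tested that fell and 33.8% that rose. Their summed level was 1482 to 1760 CPM in DMSO and 1154 to 1226 CPM with DNMT1i. In K562 edgeR called none of the 12 (6 at unadjusted p below 0.05, median log2 fold change −0.18) and DESeq2 called 1 lower. Of all genes tested there with edgeR, 2.38% fell and 6.47% rose. Summed levels of the 12 in K562 were 1986 to 2336 CPM in DMSO and 1912 to 2091 CPM with DNMT1i. Markers of other cell types (9 genes) were low in HCT116, at 9.40 to 11.5 CPM summed in DMSO and 26.3 to 34.7 CPM with DNMT1i. All 3 that could be tested rose, beside 33.8% of all genes. Of 6 colon epithelial markers tested, 2 rose and 4 fell (summed 2954 to 3187 CPM in DMSO and 2866 to 3489 CPM with DNMT1i), and erythroid markers summed to 272 to 314 CPM in DMSO and 352 to 406 CPM with DNMT1i. The part of S phase RNA and of these markers in the changes of either line was not tested.

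**Figure D5:**
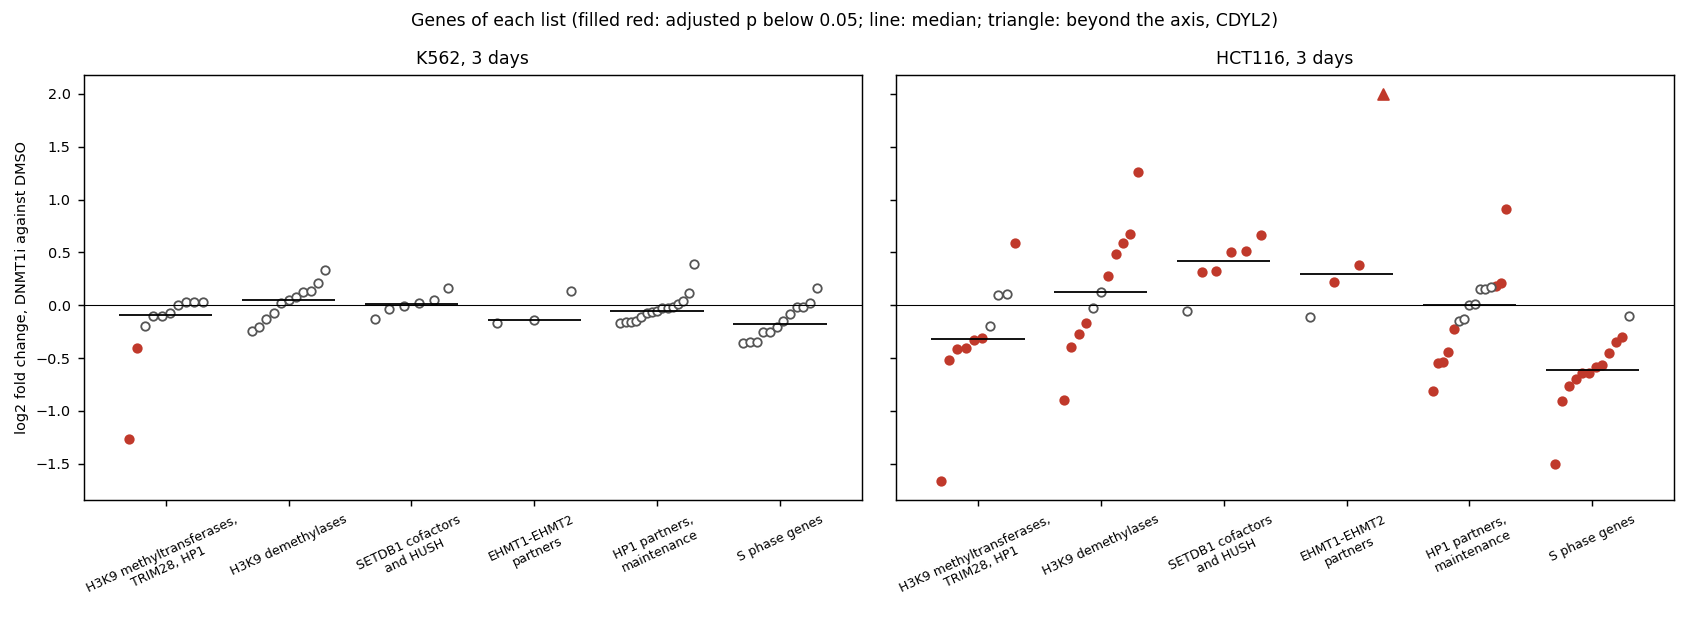
Log2 fold change with DNMT1i (y axis) in K562 (left) and HCT116 (right) at 3 days. Points are genes of the set, the 4 pathway lists and the S phase list. Filled red points had adjusted p below 0.05 and lines are medians. The triangle is CDYL2, beyond the axis. CDYL2 passed the count filter through the DNMT1i group alone, so its colour is not read as a call. In K562 SUV39H1 and CBX5 were the filled points, whereas in HCT116 filled points appear in every list.

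Resting levels of many of these genes differed between the wild-type lines, as did those of 36.9% (higher in K562) and 39.6% (lower) of all genes. In DMSO, K562 had more SENP7 (log2 difference 2.20, adjusted p = 1.8e-11), LRIF1 (1.4998, 1.54e-10), CHAF1B (1.09, 8.25e-10) and SMCHD1, which silences the inactive X (1.26, 8.76e-10), among 9 HP1 partners and heterochromatin maintenance genes that were higher and 5 that were lower. Of SETDB1 cofactors 2 were higher, ATF7IP2 (3.54, 3.44e-16) and MORC2 (0.99, 1.72e-09), and 3 were lower, with PPHLN1 at −0.30 (0.00332) and MPHOSPH8 at −0.26 (0.0106). Of demethylases 4 were higher and 4 lower, among them KDM7A (0.79, 4.05e-07), KDM1A (0.37, 5.23e-05), PHF2 (−0.66, 2.37e-06) and KDM3A (−0.45, 6.17e-05), and of EHMT partners ZNF644 was lower (−0.30, 0.0137). In the response to DNMT1i, 5 demethylases differed between lines, led by KDM7A (−1.20, 1.87e-06), KDM3A (−0.45, 0.00717), KDM4D (1.11, 0.0117) and PHF8 (−0.36, 0.0354), as did CDYL (−0.51, 0.00164). Of all genes, 15.7% had a lower and 14.1% a higher response in K562.

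In the engineered lines, with dTAG-13 the demethylase PHF2 fell by 0.42 (adjusted p = 0.0215). Among HP1 partners and heterochromatin maintenance genes, DNMT1 (−0.34, 0.0269) and the SUMO protease SENP7 (−0.46, 0.0484) fell. The calls of PHF2, DNMT1 and SENP7 held in 7, 7 and 6 of 11 alternatives (adjusted p up to 0.128, 0.151 and 0.211). In HT-CTCF cells DNMT1i raised ATF7IP, which protects SETDB1 from degradation, without HaloPROTAC3 (0.39, adjusted p = 0.0134) and with it (0.34, 0.0173), and with HaloPROTAC3 also KDM3A (0.34, 0.0189) and LRIF1 (0.54, 0.00085). HaloPROTAC3 in DMSO lowered KDM4D (−1.61, 0.0016) and raised JMJD1C (0.33, 0.00273), KDM4B (0.44, 0.00852) and ATRX (0.30, 0.00416). In DNMT1i, where 1551 of all 12690 genes tested rose and 1286 fell, it raised JMJD1C (0.40, 0.000321), KDM4B (0.46, 0.00443), KDM3A (0.28, 0.0245), TASOR (0.25, 0.0375), CDYL (0.27, 0.049) and LRIF1 (0.29, 0.0389), and lowered KDM3B (−0.29, 0.00617), UHRF1 (−0.58, 0.000211), CHAF1A (−0.44, 0.00219) and INCENP (−0.38, 0.0065). Of these, TASOR held in 3, CDYL in 1 and KDM3A and LRIF1 in 5 of 12 alternatives each. No gene of the 4 lists passed the interaction test in edgeR (1 demethylase, 1 EHMT partner and 5 HP1 partners or maintenance genes at unadjusted p below 0.05), and DESeq2 called 1 gene of the HP1 partner and maintenance list. With HaloPROTAC3 in DNMT1i, EHMT2 fell while 5 of 12 S phase genes fell and none rose. The part of S phase RNA in the EHMT2 change was not tested.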

How the data were processed

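Poly(A) RNA-seq libraries with unique molecular identifiers (UMIs) were analysed from 30 samples in 10 groups taken from the labels, each of 3 separate cultures. The authors extracted UMIs and removed duplicates with UMI-tools 1.1.1, trimmed with cutadapt 2.7, aligned with STAR 2.6.0 to hg38 and deposited raw counts per gene from HTSeq and per exon bin, without normalization. The deposited comparison tables hold the authors' own log2 fold changes and p-values, which were not used, nor were 18 columns of per-sample values in them; 1 of these tables gave the exon bin positions. Whether counting used strand is not stated in the sources used here. Reads not placed in 1 gene (17.1% to 23.6%) were left out.

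Gene names and gene positions are from GENCODE 44, which matched 60463 of 60664 genes, and promoter windows from RefSeq (GRCh38.p14), with no entry for TRIM28. Gene counts were tested with edgeR 4.0.16 in R 4.3.3 (TMM, filterByExpr with a minimum count of 10, quasi-likelihood F test, Benjamini-Hochberg over all genes tested), on the 6 libraries compared, on the 12 HT-CTCF libraries or on the 12 wild-type libraries. SE was taken as the absolute log2 fold change divided by the root of F. Exon usage was tested with edgeR's diffSpliceDGE. Scripts were tested on simulated data. Alternatives were RLE scaling, DESeq2 1.42.0, no count filter, a replicate block, leaving out each library, only the 6 libraries compared and, added after seeing the data, library totals without TMM. The 10 genes, the lists and the tests were chosen with earlier results of these data known. Text names all 10 in every comparison and, of each list, up to 4 genes with the smallest p among those called.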

Additional observations from a re-analysis of the deposited data

Results flagged for a closer look

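In 2 genes of the set the DNMT1i response at 3 days differed between wild-type K562 and HCT116 by a test of the difference (edgeR's quasi-likelihood test on 12 libraries). Over all genes tested, 15.7% had a more negative response in K562 and 14.1% a more positive one, so the count is no result about the set. For CBX3 the K562 response minus the HCT116 response was −0.57 on the log2 scale (adjusted p = 0.00361). For SETDB1 it was 0.34 (adjusted p = 0.0329, and up to 0.136 over the alternatives), a call that held in 5 of 17 alternatives.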

How the results depend on the processing

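Of 275 alternative values for the gene calls, 242 kept the call and 33 lost it, and no called value changed direction; 49 values that were called under neither setting changed sign. Sample size of 3, few HT-CTCF counts and the scaling limit these results. Replicate numbers did not pair the wild-type samples: same-numbered DMSO and DNMT1i libraries of K562 and of HCT116 correlated from −0.21 to 0.21. Same-numbered speckle libraries correlated at 0.08, 0.16 and 0.40. There, DMSO replicate 2 was closer to dTAG-13 replicate 1 (0.25), so pairing was not settled. With the replicate block, 1 gene of the set fell in K562 (CBX5 lost, adjusted p = 0.0756) and 4 fell with dTAG-13 (SUV39H2, 0.0301, and CBX3, 0.0148, added). The block left none with a higher response in K562 (SETDB1, 0.0726), and it called 2 speckle exon bins (CBX5, 0.0283, and TRIM28, 0.0492). It changed no other call of a gene in the set.

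Without TMM, 1 gene fell in K562, 3 rose in HCT116, 2 fell with HaloPROTAC3 in DMSO and 4 in DNMT1i, and 0 had a higher response in K562, as with RLE scaling (0) and DESeq2 (0). On only the 6 libraries compared, 2 fell with HaloPROTAC3 in DNMT1i. Without the count filter 1 speckle bin was called. Leaving out 1 library gave 1 to 3 genes lower in K562, 0 to 2 lower with dTAG-13, 0 to 1 lower for DNMT1i with HaloPROTAC3, 0 to 1 higher and 0 to 1 lower for HaloPROTAC3 in DMSO, 0 to 1 higher and 1 to 3 lower in DNMT1i, 0 to 3 higher responses in K562, and 0 to 1 bins in HCT116 (CBX1, without DNMT1i replicate 2) and in speckle cells. Without division by length the CBX3 share differed by 5.52 (K562) and 14.7 (HCT116) percentage points between DNMT1i and DMSO, and the CBX5 share by −6.71 and −13.5. The cause was not tested.

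Over all genes, K562 calls went from 1214 to 1899 with no filter and 756 to 3440 on leaving out a library, the highest without DMSO replicate 3 and the lowest without DNMT1i replicate 1 (756) or 2 (792). Speckle calls went from 658 (222 higher, 436 lower) to 1167 (524 and 643) with no filter, 3061 with the block and 179 (without dTAG-13 replicate 2; 199 without DMSO replicate 1, 310 without dTAG-13 replicate 1) to 1069 (without dTAG-13 replicate 3). DNMT1i calls in HT-CTCF cells went from 315 to 163 (without DNMT1i replicate 1) to 455, and with HaloPROTAC3 from 687 (363 and 324) to 263 (without HaloPROTAC3 DMSO replicate 3) to 643, to 297 and 454 with no filter and to 248 and 502 without TMM. The interaction went from 34 (7 and 27) to 165 with no filter, 143 (60 and 83) with DESeq2, 61 (6 and 55) without TMM and 0 to 238 on leaving out a library, the highest without DMSO replicate 3 and 0 without DMSO replicate 2, DNMT1i replicate 2 or HaloPROTAC3 DMSO replicate 3. The response difference went from 2435 and 2699 to 1947 and 3266 with DESeq2.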
